A study of Mus musculus with 4 samples.

Results

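The ADAM and ADAMTS genes of mouse testis were compared between wild-type mice and mice that lack Tas1r3, the subunit shared by the sweet and umami taste receptors. Members were all gene symbols made of Adam or Adamts and a number, which gave 50 genes with 77 transcripts among the 17924 gene symbols measured. By known role, 21 were ADAM genes of germ cells, 11 were other ADAM genes and 18 were ADAMTS genes. Adam28, Adam33 and Adamts13 were not analysed here.

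RNA sequencing was done on whole testes of male C57BL/6 mice kept on a normal diet for 18 weeks, with 2 Tas1r3+/+ samples (WT) and 2 Tas1r3-/- samples (KO). All 4 samples shared strain, sex and diet, and the labels give neither the animals' age nor how the Tas1r3 allele was disrupted. Whether the samples came from separate animals is not stated either, and the p-values measure only the spread between these samples. Levels are in CPM, the reads of a gene scaled to the same total in every sample. Members of the family are ranked by CPM divided by transcript length in kilobases, while shares of a sum and the genes of the other lists are given in plain CPM.

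ADAM proteins are membrane-anchored, with a metalloprotease domain followed by a disintegrin domain that binds partner proteins. In mouse testis many of them are made by spermatocytes and spermatids and are displayed on the sperm surface. There ADAM3 is needed for sperm to pass from the uterus into the oviduct and to bind the egg coat. ADAM1A and ADAM2, the subunits of fertilin, pair in the endoplasmic reticulum and are needed for ADAM3 to reach the surface. ADAM10 and ADAM17 are the sheddases of most tissues and cut receptors and growth factors off the cell surface. ADAMTS proteins are secreted, carry thrombospondin repeats and cut proteoglycans, procollagens and other matrix proteins.

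A metalloprotease domain needs a zinc site, and the coding sequences separated members that carry it from members that do not. The site was read in frame as a histidine codon, a glutamate codon, 2 codons of any kind, a histidine codon, 5 codons of any kind and a histidine codon. Coding sequences came from GENCODE M21 transcripts of GRCm38 and were found for 49 members, 48 of them by the RefSeq identifier of a measured transcript. The sequences below cover the site of 5 members in which it is complete, with the 3 histidine codons and the glutamate codon in capitals and 2 codons on each side. They were chosen to show fertilin alpha, a testase, another testis ADAM and the sheddases of most tissues.
Adam1a: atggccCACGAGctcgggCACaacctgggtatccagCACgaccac
Adam24: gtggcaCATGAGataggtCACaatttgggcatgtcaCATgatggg
Adam30: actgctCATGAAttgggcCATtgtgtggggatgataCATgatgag
Adam10: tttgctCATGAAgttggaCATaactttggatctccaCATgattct
Adam17: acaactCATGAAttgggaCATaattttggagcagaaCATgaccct

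The 4 germ cell members with the highest level per length had no complete site. The windows below are the stretches that align with the site of Adam1a or Adam1b, and 0 of the 4 site codons is kept in any of them, so they hold no capitals.
Adam3: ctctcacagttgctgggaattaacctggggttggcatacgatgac
Adam5: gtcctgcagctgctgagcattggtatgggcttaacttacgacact
Adam32: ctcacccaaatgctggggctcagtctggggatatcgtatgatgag
Adam2: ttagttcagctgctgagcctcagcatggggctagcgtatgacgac

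Among the 20 germ cell members with a coding sequence, 11 carried the site and 9 did not. The 9 without it were Adam2, Adam3, Adam4, Adam5, Adam6a, Adam6b, Adam18, Adam29 and Adam32. Of the other ADAM genes 7 carried it and 4 did not, namely Adam7, Adam11, Adam22 and Adam23. It was present in 17 of 18 ADAMTS genes and was not found in the matched transcript of Adamts9. Over 21901 mouse protein-coding genes, each read in its longest protein-coding transcript, 0.425% held the site, against 71.4% of the members with a coding sequence. Nearly all members were read in a RefSeq-matched transcript instead, so the shares rest on different transcript choices.

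Members without the site made up most of the germ cell ADAM RNA. They carried 76.8% of the summed CPM of the 20 germ cell genes, and their median level was 38.9 CPM per kilobase against 22.9 for the 11 genes with the site. The ranges overlapped, because Adam1a and Adam1b, which hold the site, were above 5 of the 9 genes without it. The germ cell class was set by known role and not by level, and the difference by site was not tested. Among the other ADAM genes the order of the medians was opposite, at 2.09 CPM per kilobase in the 4 genes without the site and 3.53 in the 7 with it. The ranges overlapped there too, from 0.487 to 3.865 without the site and from 0.749 to 4.69 with it.

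**Figure D1:**
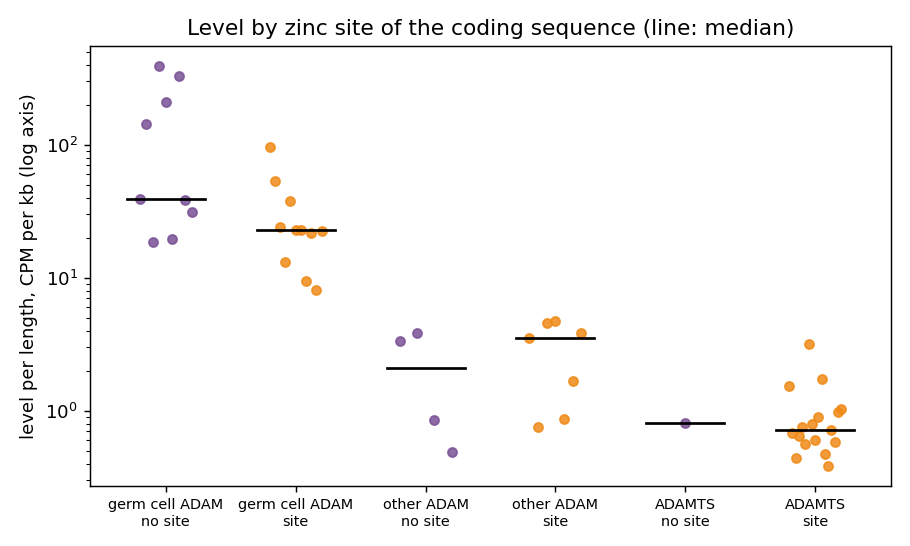
Level per length of each member with a coding sequence, in CPM per kilobase on a log axis, as the mean of 4 samples, split by class and by whether the coding sequence holds the zinc site. Points are genes and lines are medians; the 4 highest points, Adam3, Adam5, Adam32 and Adam2, are germ cell genes without the site.

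Among members with a promoter sequence, the CG count also differed by class. RefSeq promoters of GRCm38.p6, from 250 bases before to 50 bases after the start, were present for 27 members. For a gene with several promoters, that with the lowest start coordinate was used. Adam3, Adam5, Adam32 and Adam2, the highest germ cell members, had none, so the counts do not cover them. The dinucleotide CG, which reads the same on both strands, occurred 0 to 4 times in the 11 promoters of germ cell members, with a median of 1. In the 7 other ADAM promoters it occurred 5 to 32 times and in the 9 ADAMTS promoters 7 to 44 times, with a median of 25 in each class. Over 26742 mouse promoters of the same length the median was 7, and 38.4% held no more than 4. Those of Adam1a, at chr5:121521646-121521945 on the minus strand, and Adam17, at chr12:21373583-21373882 on the minus strand, are shown because they hold the highest count of the germ cell set and a count of 30, with CG in capitals.
Adam1a: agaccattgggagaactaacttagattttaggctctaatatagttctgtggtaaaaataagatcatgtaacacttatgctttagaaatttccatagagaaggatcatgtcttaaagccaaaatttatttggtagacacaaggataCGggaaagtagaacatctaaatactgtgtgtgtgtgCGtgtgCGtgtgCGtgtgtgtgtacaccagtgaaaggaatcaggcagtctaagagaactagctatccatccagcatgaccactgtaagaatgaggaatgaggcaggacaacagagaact
Adam17: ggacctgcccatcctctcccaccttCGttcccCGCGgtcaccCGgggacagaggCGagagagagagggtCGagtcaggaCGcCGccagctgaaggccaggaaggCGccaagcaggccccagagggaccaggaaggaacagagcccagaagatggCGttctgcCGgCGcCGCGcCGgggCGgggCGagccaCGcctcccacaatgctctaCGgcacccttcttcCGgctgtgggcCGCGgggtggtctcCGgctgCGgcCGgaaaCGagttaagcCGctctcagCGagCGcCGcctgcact

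The libraries differed in depth by genotype. From the step between low values, the WT libraries held about 1719356 and 1807694 assigned reads and the KO libraries about 748637 and 597936, so that mean depth was 2.62 times higher in WT. A level of 1 CPM is therefore under 2 reads in WT and under 1 read in KO, and the value of 3 reads, the floor used here, ranged from 1.66 to 5.02 CPM. Tas1r3 itself stood at 13.8 and 20.5 CPM in WT against 1.34 and 0 CPM in KO, a log2 fold change of -3.54 (SE 0.60, adjusted p 0.942 in limma over 17744 genes). That test called 1 gene of 17744 in all. Summed levels of 10 spermatid markers were 29120 and 28845 CPM in WT and 24934 and 35544 in KO. Those of 10 Sertoli cell markers ran from 1284 to 1545 CPM and those of 7 Leydig cell markers from 1574 to 1838. The genotypes overlapped in the spermatid and Sertoli sums, and the Leydig sum was lower in both KO samples, with 4 of 7 markers lower. Most of the Leydig sum was Insl3, at 1517 and 1464 CPM in WT against 1234 and 1278 in KO. All 6 blood markers measured were lower in KO, with sums of 53.0 and 188 CPM in WT and 35.8 and 59.2 in KO, and their part in the results was not tested. In bulk tissue, fewer cells of a type and less RNA per cell cannot be told apart.

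The germ cell ADAM genes held the highest levels of the family, and the order of the 6 highest was the same in every sample. Adam3, the sperm surface protein described above, was highest at 390.4 CPM per kilobase (SD 14.5 over 4 samples). Next came Adam5, a sperm surface partner of ADAM2 and ADAM3, at 325.4 (SD 21.4), and Adam32, which is expressed in testis, at 209.9 (SD 13.1). Adam2, fertilin beta, stood at 143.1 (SD 10.5), Adam1a at 96.0 (SD 18.6) and Adam1b, a second fertilin alpha of the sperm surface, at 52.9 (SD 5.50). The ranges of these 6 genes over the 4 samples did not overlap between neighbours in the order. Below them Adam18, Adam6a, Adam24 and Adam6b lay between 30.9 and 38.9 CPM per kilobase with ranges that overlapped from each gene to the next.

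Adam34l, a gene close to Adam34, was the lowest germ cell member at 3.10 CPM per kilobase, so the class spanned 126-fold. It was also the germ cell member that ranked below other classes, at position 28 of 50, while the other 20 filled positions 1 to 20. The known role that set the class includes expression in testis, so a high rank there was in part fixed by the grouping. The summed level of the 21 germ cell genes was 4274 and 4096 CPM in WT and 4226 and 4241 CPM in KO, or 0.410% to 0.427% of all CPM. Both KO sums lay between the WT sums. Adam3, Adam5 and Adam32 together made up 59.3% of the class. The 11 other ADAM genes summed to between 107 and 130 CPM in a sample and the 18 ADAMTS genes to between 83.2 and 111 CPM.

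**Figure D2:**
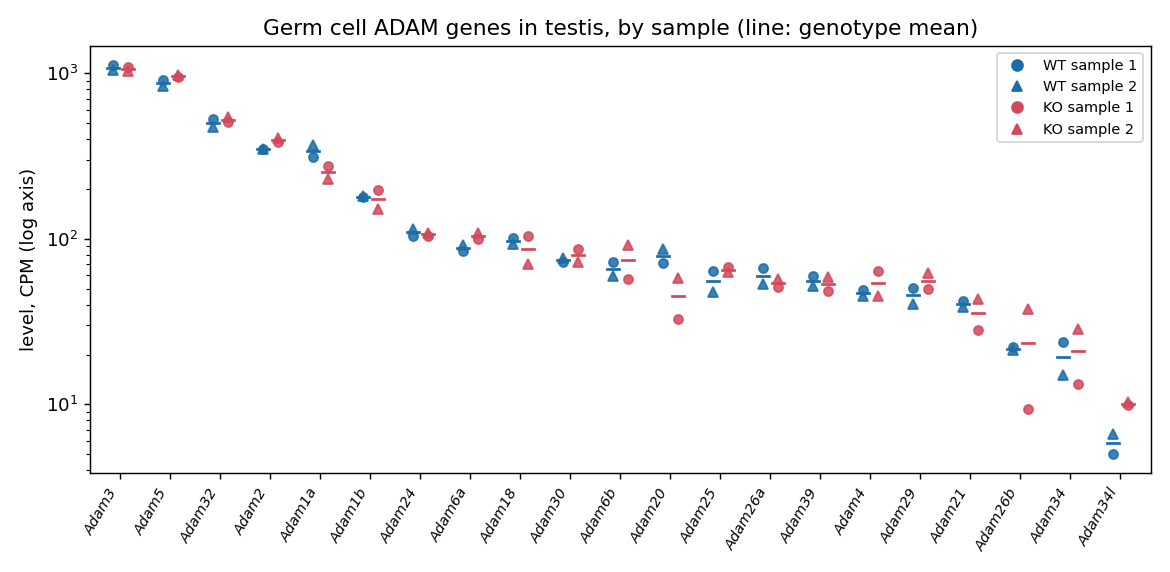
Level in CPM on a log axis of each of the 21 germ cell ADAM genes in the 4 testis samples, with circles and triangles for samples 1 and 2 of each genotype and lines for genotype means. Adam3 is highest at 1025 to 1114 CPM, and Adam34l is lowest at 5.04 to 10.3 CPM.

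The most abundant members are neighbours on chromosome 8, in mm39 coordinates as the files give them. Adam18, Adam3, Adam5, Adam32 and Adam9 follow each other on the minus strand from 25092262 to 25506939, a stretch of 415 kilobases that holds 0 other measured gene symbols. Adam9, a sheddase of many tissues, is the last of the 5 and its 3′ end lies 0.806 kilobases from the start of Adam32. Per length Adam32 was 54.3 times higher than Adam9, at 209.9 against 3.86 CPM per kilobase. The step in level between these neighbours was present in all 4 samples, with Adam9 at 12.4 and 17.0 CPM in WT against 10.7 and 21.9 CPM in KO.

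A pair of further clusters lie on the same chromosome. Adam24, Adam25, Adam20 and Adam39 lie on the plus strand from 41128118 to 41279899. Adam26b, Adam26a, Adam34l and Adam34 lie on the minus strand from 43972901 to 44156462, with 1 other measured symbol, Gm5347, between their ends. Adam34 lies within the span of Adam34l on the same strand, so reads there can be divided between them. In all, 13 of 21 germ cell members were on chromosome 8, against 1 of 11 other ADAM genes (Adam9) and 1 of 18 ADAMTS genes (Adamts18). In 13 germ cell genes the leading transcript spanned less than 10 kilobases of intron, and 6 of these, Adam1a, Adam1b, Adam4, Adam6a, Adam6b and Adam30, had none. Among the other ADAM genes 1 had introns that short and among the ADAMTS genes 2.

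Comparing genotypes, 0 of the 50 members were called by limma at an adjusted p under 0.05, where 0.00564% of all genes tested were called. All 50 passed the filter of 1 CPM in 2 samples. At an unadjusted p under 0.05, 4 members were lower in KO and 0 were higher, against 3.33% of all genes lower and 1.37% higher, or 4.69% in either direction. The 4 were Adam20, Adam1a, Adam22 and Adamts9. Both KO samples lay above both WT samples in 10 members and below them in 8, or 36% of the members, against 15% and 19.4% of all genes and 34.4% in either direction. The median log2 fold change was 0.03 over the members and -0.05 over all genes. With 2 samples a side the smallest two-sided permutation p is 0.333, so single genes were tested in the limma fit alone.

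**Figure D3:**
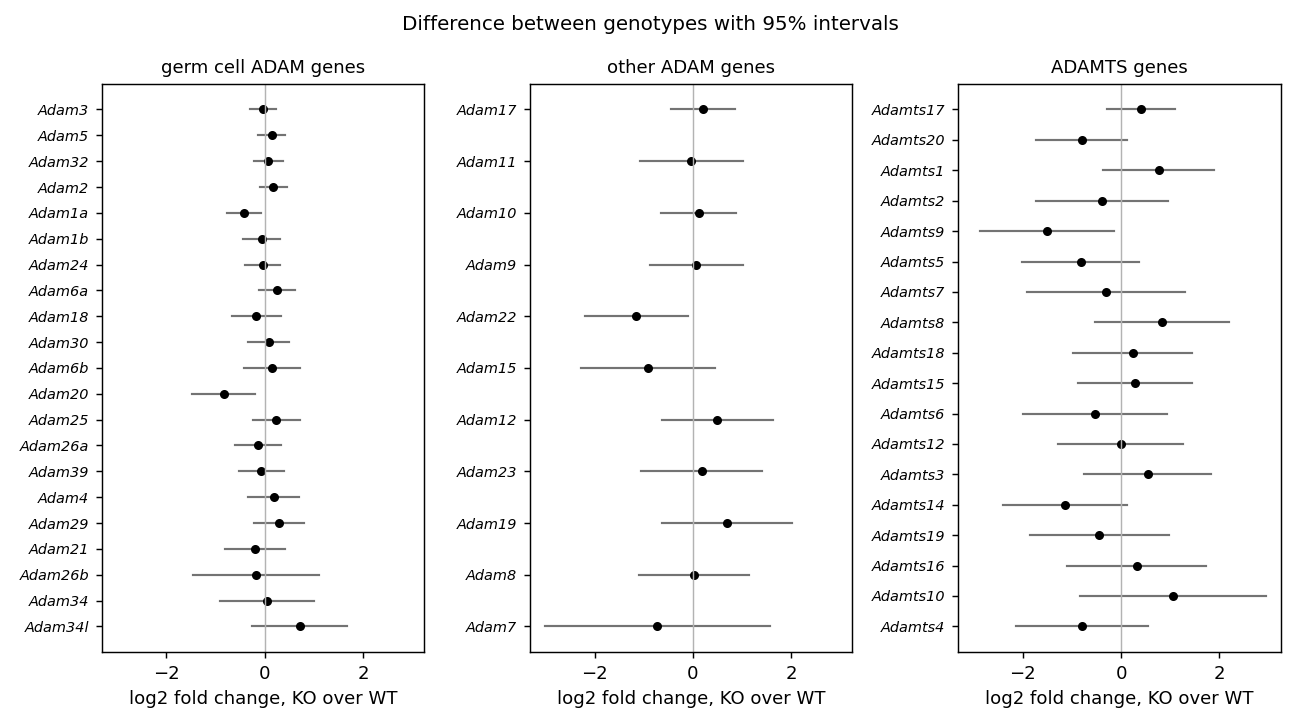
Log2 fold change of KO over WT for the 50 members, on the log2(CPM + 1) scale, with bars for 95% intervals from limma; genes are ordered by level within each class. Intervals widen from the germ cell genes at left to the ADAMTS genes at right, and those of Adam1a, Adam20, Adam22 and Adamts9 do not reach 0.

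Adam3 differed between genotypes by less than the samples of a genotype differed from each other. It stood at 1114 and 1046 CPM in WT against 1086 and 1025 CPM in KO, and the genotypes overlapped. On the log2 scale it differed by -0.03 with a 95% interval from -0.30 to 0.24, so a change of the gene beyond 0.30 in either direction lies outside the interval. Its 2729-base transcript, which differs from the 2736-base leading transcript, held 18.0% and 21.02% of the Adam3 level in WT and 17.8% and 28.0% in KO.

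Adam2 was slightly higher in both KO samples. It read 347 and 350 CPM in WT (349 ± 2.08, SD, n = 2) and 385 and 403 CPM in KO (394 ± 13.0, SD, n = 2), and the genotypes did not overlap. The log2 fold change of 0.17 (95% interval -0.11 to 0.46) did not pass, with an adjusted p of 0.942 in limma. Adam5 was also higher in both KO samples, at 907 and 840 CPM in WT against 952 and 973 CPM in KO, with a log2 fold change of 0.14 (95% interval -0.13 to 0.41). Adam6a, which lies with Adam6b inside the immunoglobulin heavy chain locus, was at 83.9 and 92.2 CPM in WT against 100.2 and 109 CPM in KO, and its log2 fold change of 0.24 did not pass either. Loss of both Adam6 genes leaves male mice infertile.

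Adam1a, the fertilin alpha that pairs with ADAM2 in the endoplasmic reticulum, was lower in both KO samples. It read 313 and 367 CPM in WT (339.9 ± 38.0, SD, n = 2) and 277 and 230 CPM in KO (254 ± 32.7, SD, n = 2), so the genotypes did not overlap. The log2 fold change was -0.42 (SE 0.15), a 1.34-fold lower level, with an unadjusted p of 0.024 and an adjusted p of 0.942 in limma. About 1201 reads in WT and 345 in KO stand behind it. Leaving out KO sample 1 gave -0.55, and leaving out KO sample 2 gave -0.29. Adam1b, which shares 30.9% of the 50-base words of Adam1a, was at 179 and 180.0 CPM in WT against 196 and 152 CPM in KO, where the genotypes overlapped. Because reads of such near copies may be divided between them, the sum was also read. Adam1a and Adam1b together were at 492 and 547 CPM in WT against 473 and 382 CPM in KO.

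Adam20, a relative of the testases, was the lowest in p of all members. It was at 71.1 and 86.7 CPM in WT (78.9 ± 11.04, SD, n = 2) and at 32.9 and 58.0 CPM in KO (45.4 ± 17.8, SD, n = 2). The KO samples differed from each other by more than the WT samples did, and both were below WT. The log2 fold change was -0.83 (SE 0.28), a 1.78-fold lower level, with an unadjusted p of 0.0176 and an adjusted p of 0.942 in limma. KO sample 1 decides its size, since the value was -1.23 with KO sample 2 left out and -0.43 with KO sample 1 left out.

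In the neighbours of Adam20 the genotypes overlapped. Adam25 was at 63.7 and 47.5 CPM in WT against 67.5 and 62.5 CPM in KO, with a log2 fold change of 0.24. Adam39 was at 59.8 and 51.7 CPM in WT against 48.2 and 58.4 CPM in KO, with a log2 fold change of -0.07. Whether they differ from Adam20 in their change was not tested. Adam20 shares 26.0% of its 50-base words with Adam25 and 28.1% with Adam39, so its values are uncertain where reads fell in shared stretches. The sum of Adam20 and Adam39 was 131 and 138 CPM in WT and 81.1 and 116 CPM in KO, and that of Adam20 and Adam25 was 135 and 134 CPM in WT and 100.3 and 121 CPM in KO. Both sums were lower in both KO samples.

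Adam24, a testase whose loss in mice lets more than a single sperm enter the egg, stayed within a narrow range. It was at 104 and 115 CPM in WT against 104 and 109 CPM in KO, with a log2 fold change of -0.04 (95% interval -0.40 to 0.32). The genotypes overlapped.

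The other germ cell members overlapped between genotypes apart from Adam34l. Adam32 was at 526 and 471 CPM in WT against 504 and 543 CPM in KO. Adam18 was at 101 and 92.3 CPM in WT against 104 and 70.2 CPM in KO, with the outer value in KO sample 2. Both are testis proteins of the disintegrin kind without a zinc site. Adam30, a testis ADAM with the site, was at 72.7 and 76.8 CPM in WT against 86.8 and 71.9 CPM in KO. Adam6b was at 71.9 and 59.8 CPM in WT against 57.4 and 91.9 CPM in KO, and its sum with Adam6a, which shares 29.5% of its 50-base words, was 156 and 152 CPM in WT and 158 and 201 CPM in KO.

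Over the germ cell members, the 2 samples of a genotype differed by a median of 0.147 on the log2 scale in WT and of 0.268 in KO. Adam26a was at 66.9 and 53.0 CPM in WT against 51.5 and 56.8 CPM in KO. Adam4 was at 49.1 and 45.3 CPM in WT against 63.7 and 45.1 CPM in KO. Adam29 was at 50.6 and 40.4 CPM in WT against 49.4 and 61.9 CPM in KO. These 3 genes are expressed in testis, and their log2 fold changes lay between -0.14 and 0.29. Adam21 was at 41.9 and 38.7 CPM in WT against 28.1 and 43.5 CPM in KO, so that KO sample 1 alone was low.

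Adam26b showed the widest gap between samples of a genotype in the germ cell class, and the gap was in KO. It was at 22.2 and 21.2 CPM in WT against 9.33 and 37.9 CPM in KO, or about 7.0 and 22.6 reads. In log2 fold change it stood at -0.18, and at -1.14 without KO sample 2 and at 0.78 without KO sample 1. The direction for Adam26b therefore rests on which KO sample is kept. Adam26a and Adam26b share 28.6% of the words of Adam26a. Adam34 was at 23.8 and 14.99 CPM in WT against 13.2 and 28.5 CPM in KO, also with KO sample 1 low and KO sample 2 high. Adam34l was at 5.04 and 6.65 CPM in WT against 9.94 and 10.3 CPM in KO, where the genotypes did not overlap. This gave a log2 fold change of 0.71 (SE 0.42), with an unadjusted p of 0.130 in limma, on 21 reads in WT and 14 in KO.

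Over the 21 germ cell members, 11 were higher and 10 lower in KO, with a median log2 fold change of 0.04 against -0.05 over all genes. Of these, 19 lay within 0.5 of 0 on the log2 scale, the exceptions being Adam20 and Adam34l. The genotypes stood apart in 6 of the 21, or 28.6%, where 34.4% of all genes did.

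Genes listed for ADAM3 maturation in mice were then read, since loss of several of them leaves sperm without surface ADAM3. The list held 18 genes, mostly for chaperones, processing enzymes and surface proteins, and all 18 were measured. A role in ADAM3 maturation is not equally established for all of them. Of these, 12 were higher and 6 lower in KO, and the median log2 fold change was 0.06. At an unadjusted p under 0.05 in limma there were 0, against 4.69% of all genes. The genotypes stood apart in 4 of the 18, or 22.2%, against 34.4% of all genes. Ace, the gene of angiotensin-converting enzyme, was at 691 and 719 CPM in WT against 755 and 618 CPM in KO. Clgn, calmegin, a chaperone that lets the fertilin subunits pair, was at 633 and 544 CPM in WT against 648 and 584 CPM in KO. Cmtm2a, a membrane protein needed with Cmtm2b for ADAM3 on sperm, was at 545 and 534 CPM in WT against 495 and 565 CPM in KO. The genotypes overlapped in each of these 3 genes.

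Prss37, a protease-like protein of the acrosome needed for ADAM3 maturation, had the smallest p of the list. It was at 193 and 169 CPM in WT against 203 and 259 CPM in KO, with both KO samples above WT. On the log2 scale the difference was 0.34 (SE 0.17), with an unadjusted p of 0.071 and an adjusted p of 0.942 in limma. It was 0.52 without KO sample 1 and 0.17 without KO sample 2. The next smallest p belonged to 1700029I15Rik, a small transmembrane protein gene, at 39.0 and 55.3 CPM in WT against 28.1 and 40.1 CPM in KO, a log2 fold change of -0.46 (unadjusted p 0.130). Rnase10, which is secreted by the epididymis, was listed at 0.00446 and 3.75 CPM in WT against 3.88 and 3.46 CPM in KO. At these levels, no more than 7 reads in a library, a difference was not detectable.

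**Figure D4:**
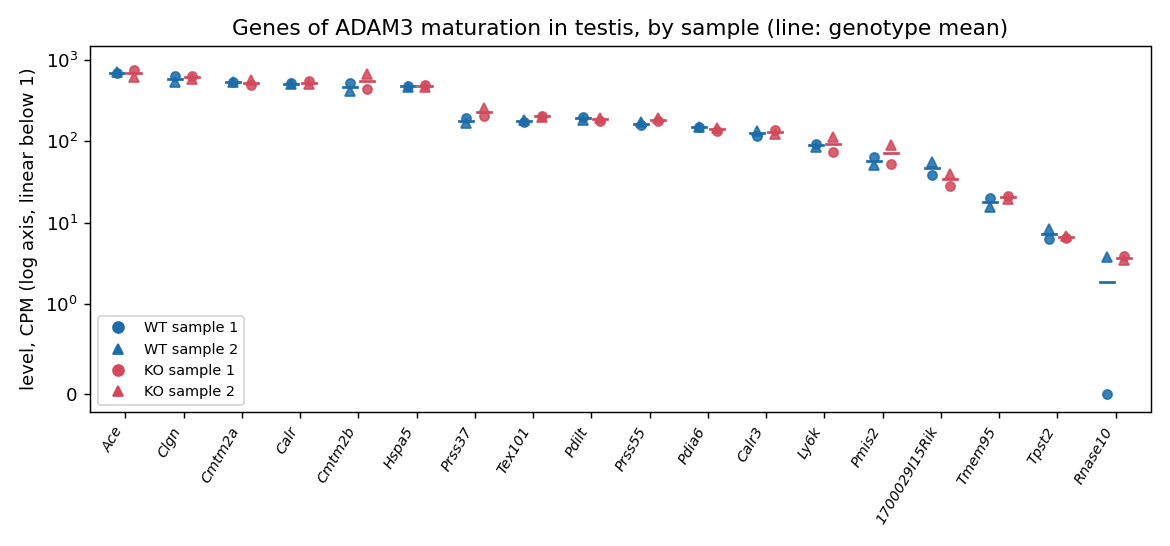
Level in CPM of the 18 genes listed for ADAM3 maturation, by sample, on an axis that is logarithmic above 1 CPM and linear below. Circles and triangles are samples 1 and 2 of each genotype and lines are genotype means. Levels run from 618 to 755 CPM in Ace down to under 4 CPM in Rnase10, and 12 of the 18 were higher in KO by log2 fold change.

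The other ADAM genes were low, and few reads lay behind them in KO. Of the 11 genes, 7 had under 5 reads in a KO sample, against 0 of the 21 germ cell genes. Of the 11, 7 were higher and 4 lower in KO, with a median log2 fold change of 0.07, and the genotypes stood apart in 3, or 27.3%, against 34.4% of all genes. Adam17, the sheddase of tumour necrosis factor and of epidermal growth factor receptor ligands, was at 16.6 and 21.4 CPM in WT against 21.9 and 21.7 CPM in KO. Adam10, the sheddase that cuts Notch receptors, was at 13.0 and 18.3 CPM in WT against 18.7 and 15.1 CPM in KO. Their log2 fold changes were 0.20 (95% interval -0.45 to 0.86) and 0.12 (95% interval -0.65 to 0.88). Both intervals span more than 1 on the log2 scale, so these depths leave a wide range of changes possible. For Adam17 the value was -3.68 (adjusted p 0.663 in limma) when the transcript with the highest level stood for the gene. Such values, here and for the genes below, depend on how reads had been divided between overlapping transcripts, which is an estimate.

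Adam22, a membrane receptor for the secreted protein LGI1 that has no zinc site, was lower in both KO samples. It was at 23.5 and 17.4 CPM in WT against 5.34 and 13.4 CPM in KO, or about 72 reads in WT and 12 in KO. The log2 fold change was -1.15 (SE 0.45), a 2.22-fold lower level, with an unadjusted p of 0.0352 and an adjusted p of 0.942 in limma. Without KO sample 2 it was -1.74, and without KO sample 1 it was -0.56. With the highest transcript standing for the gene it was -1.89. Adam11 and Adam23 are relatives of Adam22 that also lack the site. Adam11 was at 12.04 and 21.6 CPM in WT against 23.4 and 10.5 CPM in KO, and Adam23 was between 3.65 and 7.40 CPM. Both overlapped between genotypes.

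Adam15, a disintegrin protease of endothelium and other tissues, was at 21.3 and 12.5 CPM in WT against 4.01 and 16.0 CPM in KO. KO sample 1 alone was low. Its log2 fold change was -0.91 (SE 0.59), with an unadjusted p of 0.161 in limma. It was -1.79 without KO sample 2 and -0.03 without KO sample 1. Read on its highest transcript it was -3.29. Summed levels of 8 myoid and endothelial markers were 130 and 155 CPM in WT and 126 and 106 CPM in KO, with 6 of 8 lower in KO, and their part in the values of Adam15 was not tested.

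Adam19, meltrin beta, a protease that cuts neuregulin, had the next smallest p of this class. It was at 2.02 and 5.91 CPM in WT against 7.20 and 5.69 CPM in KO, a log2 fold change of 0.70 (unadjusted p 0.259). Adam8, Adam12 and Adam23 were at or under 8.57 CPM in every sample. Adam7, a surface protein made in the epididymis and passed to sperm there, was at 5.42 and 0 CPM in WT against 1.34 and 0 CPM in KO. These are about 9 and 0 reads in WT and 1 and 0 in KO, so the gene was detected in WT sample 1 above the floor of 3 reads and in no other library.

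**Figure D5:**
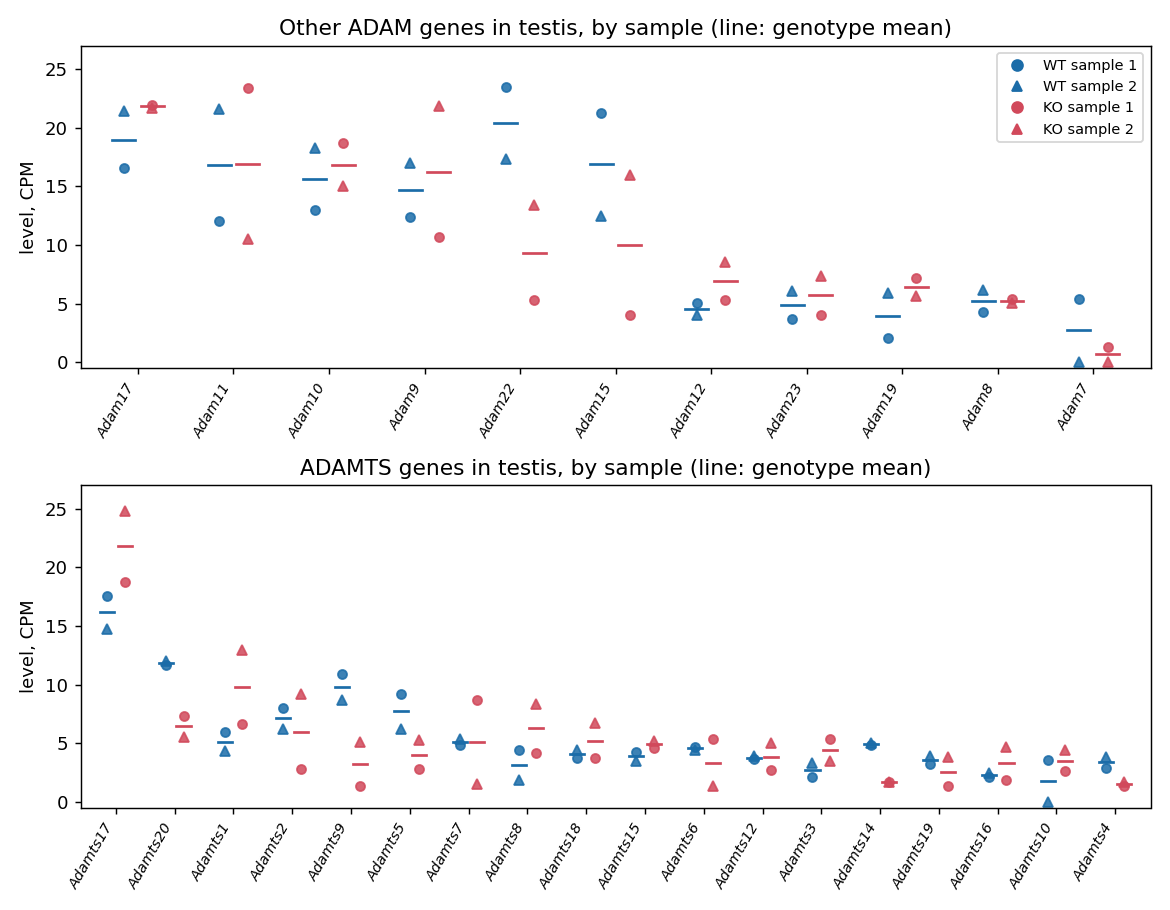
Level in CPM of the 11 other ADAM genes (top) and the 18 ADAMTS genes (bottom) in the 4 testis samples, with circles and triangles for samples 1 and 2 of each genotype and lines for genotype means. All values lie under 25 CPM, and in most ADAMTS genes the KO circle lies below the KO triangle.

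The ADAMTS genes were the lowest class, with a median of 0.736 CPM per kilobase against 24.0 in the germ cell class. Of 18 genes, 16 had under 5 reads in a KO sample. Of these 18, 8 were higher and 10 lower in KO, with a median log2 fold change of -0.16, and the genotypes stood apart in 9, or 50%, against 34.4% of all genes. The KO samples disagreed, since 14 of 18 genes were lower in KO sample 1 than in KO sample 2. Without KO sample 1 the median turned to 0.31.

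Adamts17, a protease linked in humans to short stature and eye disease, was the highest. It was at 17.6 and 14.8 CPM in WT against 18.8 and 24.8 CPM in KO, with both KO samples above WT. That is a log2 fold change of 0.40 (95% interval -0.30 to 1.10).

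Of the 7 proteases that cut hyaluronan-binding proteoglycans, Adamts4, Adamts5, Adamts9 and Adamts20 were lower in both KO samples, Adamts1 and Adamts15 were higher in both, and Adamts8 overlapped. Adamts9 was at 10.9 and 8.68 CPM in WT against 1.34 and 5.08 CPM in KO, about 34 reads in WT and 4 in KO. That gave a log2 fold change of -1.51 (SE 0.59), with an unadjusted p of 0.0332 and an adjusted p of 0.942 in limma. The KO to WT ratio of its reads, scaled by depth, was 0.308, with an exact 95% interval from 0.0794 to 0.864 that covers counting error only. Without KO sample 2 the log2 fold change was -2.20 and without KO sample 1 it was -0.82.

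Adamts20, its closest relative, was also lower in both KO samples, at 11.6 and 12.05 CPM in WT against 7.35 and 5.54 CPM in KO. The log2 fold change was -0.80 (unadjusted p 0.0819), and it was 1.43 when the transcript with the highest level stood for the gene. Adamts5, the main aggrecanase of mouse cartilage, was at 9.19 and 6.23 CPM in WT against 2.78 and 5.23 CPM in KO, a log2 fold change of -0.82 (unadjusted p 0.148). Adamts1, a versican-cutting protease of the ovary and other tissues, went the other way, at 5.94 and 4.34 CPM in WT against 6.68 and 13.0 CPM in KO. Its difference on the log2 scale was 0.77 (unadjusted p 0.155). Adamts4 was at 2.91 and 3.82 CPM in WT against 1.34 and 1.67 CPM in KO, and Adamts15 at 4.24 and 3.50 CPM in WT against 4.62 and 5.16 CPM in KO. None of the 7 passed after adjustment in limma.

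Among the procollagen N-proteinases, Adamts14 was lower in both KO samples and Adamts3 higher in both. Adamts14 was at 4.86 and 5.004 CPM in WT against 1.67 and 1.69 CPM in KO, about 17 reads in WT and 2 in KO, with a log2 fold change of -1.15 (unadjusted p 0.069). Adamts2 was at 8.003 and 6.24 CPM in WT against 2.77 and 9.22 CPM in KO, and the genotypes overlapped. The third of them, Adamts3, was between 2.09 and 5.36 CPM with both KO samples above WT. The remaining 10 ADAMTS genes lay under 9 CPM in every sample. Apart from Adamts4 and Adamts15, given above, the genotypes overlapped in all of them.

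Regulators of these proteases showed no common direction. Of 25 listed inhibitors, partners, convertases and ADAMTS-like proteins 22 were tested, 11 higher and 11 lower in KO, with a median log2 fold change of 0.0023. At an unadjusted p under 0.05 in limma there were 0, against 4.69% of all genes. The genotypes stood apart in 7 higher and 5 lower genes, or 54.55% of those tested, against 34.4% of all genes. Pcsk4, the convertase of germ cells that processes sperm ADAM precursors, was at 189 and 204 CPM in WT against 196 and 181 CPM in KO. Timp2, a metalloprotease inhibitor, was at 130 and 157 CPM in WT against 156 and 106 CPM in KO, and both overlapped between genotypes. Frmd8, which stabilises the iRhom proteins that carry ADAM17 to the surface, was at 65.6 and 59.7 CPM in WT against 70.8 and 76.0 CPM in KO. The smallest p of the list belonged to Rhbdf2, an iRhom, at 4.96 and 9.50 CPM in WT against 14.9 and 11.7 CPM in KO, a log2 fold change of 0.84 (unadjusted p 0.0894), which turned to -0.93 when the transcript with the highest level stood for the gene. Adamtsl1, an ADAMTS-like protein without a protease domain, was at 8.48 and 7.58 CPM in WT against 14.001 and 11.7 CPM in KO, a log2 fold change of 0.62 (unadjusted p 0.138). Reck, a membrane inhibitor, was at 11.9 and 11.1 CPM in WT against 14.8 and 20.3 CPM in KO, a log2 fold change of 0.55 (unadjusted p 0.142).

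Among known substrates, 24 of 26 listed genes were tested, and 16 of them were lower and 8 higher in KO, against 9825 lower and 7919 higher of all genes. Their median log2 fold change was -0.15. The genotypes stood apart in 8 lower genes and 1 higher gene, or 37.5% of the list, against 19.4% lower, 15% higher and 34.4% in either direction over all genes. App, the amyloid precursor protein that ADAM10 cuts, was at 81.7 and 97.0 CPM in WT against 66.7 and 63.6 CPM in KO. This is a log2 fold change of -0.45 (SE 0.18), with an unadjusted p of 0.0358 and an adjusted p of 0.942 in limma, and it was the only gene of the list with an unadjusted p under 0.05. On its highest transcript App had a value of -1.11. Comp, a cartilage matrix protein cut by ADAMTS7 and ADAMTS12, was at 282 and 295 CPM in WT against 256 and 219 CPM in KO, a log2 fold change of -0.28 (unadjusted p 0.0769), and -0.40 (adjusted p 0.0341) without KO sample 1. Prnp, the prion protein, was at 20.8 and 25.4 CPM in WT against 17.4 and 12.9 CPM in KO (log2 fold change -0.59, unadjusted p 0.0926). Cdh2, N-cadherin of the germ cell and Sertoli cell contacts, was at 55.6 and 53.5 CPM in WT against 64.3 and 48.4 CPM in KO, where the genotypes overlapped.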

How the data were processed

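Testis RNA of 4 samples was analysed, grouped as WT or KO by sample title. An Ion Torrent kit for total RNA was used for the libraries, per the labels' protocols, and no source says that strand was used in counting. The tools were STAR and Partek with mm39, per the submitters' processing notes, with versions not given in the sources. The values deposited by the authors are CPM per RefSeq transcript, 29342 transcripts in all, scaled to the same total in each sample. The series table and 4 of 4 sample tables held identical values.

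Transcript values were summed per gene symbol. Genes with at least 1 CPM in 2 libraries (17744) were tested in limma 3.58.1 (R 4.3.3) on log2(CPM + 1), with a trend of variance on the mean and Benjamini-Hochberg adjustment over all genes at 0.05. Fold changes are KO over WT on that scale, where changes of low genes appear smaller than they are. The procedure was checked on simulated data in which only higher genes were changed, and by a large fold. The check does not cover small changes or low genes. The step between the commonest low values was taken as 1 read: 0.582 and 0.553 CPM in WT, 1.34 and 1.67 CPM in KO. Within 0.02 reads, 23.0% to 48.1% of genes came out whole, so read numbers are rounded estimates and no count model was used. Intervals on reads and the floor of 3 reads cover counting error only. Level per length is the sum over transcripts of CPM divided by transcript length.

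Members and gene lists were chosen with earlier results of these data known. Values per sample are printed for Adam2, Adam3, germ cell members averaging at least 5 CPM, the 5 highest of the other classes, the 3 smallest p of each class and, for other lists, the 3 smallest p and the 3 highest. Adamts3, Adam7, Adam23 and the near copies were named besides. As alternatives, other pseudocounts and filters, a trimmed mean of M values, quantile normalization, a fit without the trend, a replicate block, precision weights, the highest transcript per gene and the omission of each sample were tried. Coding and promoter sequences come from GRCm38, positions of genes from the files. Python 3.11.15, pandas 2.3.3 and Biopython 1.88 were used.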

Additional observations from a re-analysis of the deposited data

How the results depend on the processing

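With 2 samples per genotype, a depth 2.62 times lower in KO and under 5 reads for 23 of 50 members in a KO sample, the genotype comparison is limited most for the ADAMTS and other ADAM genes. Of 686 values of a member under an alternative, 636 kept their direction and their side of the threshold, 44 changed sign without passing in either setting (30 members) and 6 came to pass when a KO sample was left out. With a sample left out, the lone sample is assumed to vary like the other genotype. Calls over all genes rose in the same fits, so these 6 are not read as a result about the members.

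Genes called higher in KO were 0, and 6 with the replicate block, 4 with precision weights and 1 to 434 with a sample left out. Those called lower were 1, and 0 with a pseudocount of 0.1 or no mean trend, 17 with the replicate block and 3 to 1029 with a sample left out. At an unadjusted p under 0.05, 243 were higher (477 with precision weights, 97 to 1491 with a sample left out) and 590 lower (347 with a filter of 5 CPM, 351 with precision weights, 103 to 2638 with a sample left out). Each of the 4 omissions moved these counts, and the highest came without KO sample 1 in each case. Members called were 0 in the main fit and in each alternative that kept all samples. Members at an unadjusted p under 0.05 were 0 higher (1 with no mean trend, 0 to 6 with a sample left out, 6 without KO sample 1) and 4 lower (2 with a pseudocount of 0.1, 2 to 9 with a sample left out, 2 without either WT sample, 9 without KO sample 2). The differences between replicates of WT and KO correlated at -0.0054 over genes, so no shared shift by replicate number was seen. That value cannot show whether the samples were paired in handling. With the replicate block 0 members were called, and Tas1r3 passed at the same log2 fold change of -3.54.

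The log2 fold change of Tas1r3 ran from -4.16 to -2.93 with a sample left out. With a sample left out, the median log2 fold change of germ cell members ran from -0.0090 to 0.11. It ran from -0.13 to 0.35 for other ADAM members and from -0.14 to 0.31 for ADAMTS members. For regulators it ran from -0.031 to 0.20, for substrates from -0.29 to -0.17 and for the genes listed for ADAM3 from 0.02 to 0.08. The ADAMTS median was above 0 without KO sample 1 and the highest value for other ADAM members came without WT sample 2. For substrates the median was -0.25 with a pseudocount of 0.1, -0.071 with quantile normalization and -0.079 with precision weights. The cause of these shifts was not tested.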

Other observations

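Some RNA of epididymis genes was read in WT sample 1, where Adam7 was detected. Of 10 listed epididymis markers, 3 were measured, and of these only Crisp1 was confined to that sample. Crisp1, a secreted protein of the epididymis that coats sperm, was at 40.7 CPM in WT sample 1, about 70 reads, and at 0 CPM in the other samples. Defb22, Defb28 and Serpina1f, chosen after their values were seen, were at 8.14, 6.40 and 8.09 CPM in WT sample 1, or 14, 11 and 14 reads, and had at most 1 read in any other sample. Rnase10, also secreted by the epididymis, went the other way, with 0 reads in WT sample 1 and 7, 3 and 2 in WT sample 2 and KO samples 1 and 2. Cst8 and Epcam, the other epididymis markers measured, were present in all samples, at 142 to 206 CPM and at 29.97 to 39.98 CPM. The part of this RNA in the values of Adam7 was not tested.

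Estimated transcript shares of Adam15 differed between genotypes, a gene pattern chosen after its values were seen. Its 3007-base transcript held 98.7% and 96.2% of the Adam15 level in WT and 7.90% in each KO sample, where the 2860-base transcript held 92.1%. About 59 reads in WT and 13 in KO (3 and 9.6 by sample) stand behind these shares. They had been divided between transcripts that overlap over most of their length. Equal shares across samples also occurred in Adam8, with 51.2% on its 3114-base transcript in every sample, and in Adamts14, with 54.5% on its 5150-base transcript. Whether any read told the Adam15 transcripts apart in KO was not tested. Adam17, with 5 transcripts, was led by its 4470-base transcript in the WT samples (66.3% and 84.0% of its level). In KO sample 1 the 4094-base transcript led (96.2%), and in KO sample 2 the 4451-base transcript (55.8%). No test was made of transcript shares.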
